A study of Mus musculus with 18 samples.

Results

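The interferon regulatory factors (IRFs) are transcription factors that share a DNA-binding domain and bind interferon-stimulated response elements. Their genes were followed in lung macrophages of mice that had inhaled lipopolysaccharide (LPS), a bacterial cell wall component sensed by Toll-like receptor 4. Of the 21254 genes in the count table, 8 were taken by name: Irf1, Irf2, Irf3, Irf4, Irf5, Irf7, Irf8 and Irf9. All 8 passed the filter on low counts, which left 15811 genes for testing.

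Bulk RNA-seq was made from 3 FACS-sorted populations of mouse lung cells, in 2 genotypes, with 3 libraries in each of the 6 groups. Monocyte-derived macrophages (moMs) were CD45+CD11b+MHC-II-Ly6C+ cells, transitional interstitial macrophages (tnsIMs) were MHC-II+Ly6C+, and mature interstitial macrophages (matIMs) were MHC-II+Ly6C-. Ezr-KOm mice carried floxed alleles of Ezr, which encodes the membrane-cytoskeleton linker ezrin, together with Cre at the Cx3cr1 locus. WT mice carried the same Cre without floxed Ezr, so Cx3cr1-Cre was shared by every group. Per the study's text, the Cx3cr1 promoter is not restricted to monocytes and macrophages, and is also active in some dendritic, eosinophil and NK cells. Mice of both sexes, C57BL/6 in background and aged 3 to 5 months, were sacrificed 24 h after nebulization with 12.5 mg of Pseudomonas aeruginosa LPS in 5 ml for 15 min. No untreated sample was analysed here, so the levels describe LPS-exposed lungs only. Libraries held between 16512783 and 48460995 gene counts.

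IRF1 is induced by interferon gamma and activates interferon-response genes, and IRF2 competes for the same sites. IRF3 and IRF7 are phosphorylated downstream of pattern-recognition receptors and drive interferon genes, and IRF5 acts with the adaptor MyD88 on inflammatory cytokine genes. IRF9 is the DNA-binding subunit of the complex that switches on interferon-stimulated genes. IRF4 and IRF8 bind DNA together with partners such as PU.1 and BATF proteins, and are known for roles in dendritic cells, B cells and myeloid development.

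The 8 genes are protein-coding and located on the mouse genome (GRCm39), as the count table gives them. Irf1 lies at chr11:53660841-53669200 on the plus strand. Irf2 lies at chr8:47192767-47300493 on the plus strand. Irf3 lies at chr7:44647072-44652272 on the plus strand. Irf4 lies at chr13:30933209-30950959 on the plus strand. Irf5 lies at chr6:29526624-29541870 on the plus strand. Irf7 lies at chr7:140842619-140846394 on the minus strand. Irf8 lies at chr8:121463097-121483433 on the plus strand. Irf9 lies at chr14:55841028-55847487 on the plus strand.

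The promoters of Irf1, Irf8 and Irf2 are shown because, of the 8 genes, these had a match to a gamma-activated sequence (GAS, letters TTCNNNGAA) or to a stretch of an interferon-stimulated response element (ISRE, GAAA, any 2 bases and GAAA again, bound by IRFs). The 300 bases before the start of the canonical transcript were searched on both strands in the GRCm39 genome with a Gencode annotation of that build, in which some starts differ from those in the count table. The window of Irf9 lies inside the gene as the count table places it, and those of Irf2, Irf3 and Irf7 do not end at its start. Among 21737 promoters of the same length, 9.19% held the GAS letters and 4.07% the ISRE letters. Capitals mark the GAS letters in all 3 sequences, which read 5′ to 3′ on the strand of the gene, here the plus strand.
Irf1 (chr11:53660541-53660840): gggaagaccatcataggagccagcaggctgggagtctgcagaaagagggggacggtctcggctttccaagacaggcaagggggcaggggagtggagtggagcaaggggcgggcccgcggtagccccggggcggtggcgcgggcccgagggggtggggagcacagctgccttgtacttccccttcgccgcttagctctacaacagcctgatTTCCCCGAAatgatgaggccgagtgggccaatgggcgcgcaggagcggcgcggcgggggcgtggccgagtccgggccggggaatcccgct
Irf8 (chr8:121462797-121463096): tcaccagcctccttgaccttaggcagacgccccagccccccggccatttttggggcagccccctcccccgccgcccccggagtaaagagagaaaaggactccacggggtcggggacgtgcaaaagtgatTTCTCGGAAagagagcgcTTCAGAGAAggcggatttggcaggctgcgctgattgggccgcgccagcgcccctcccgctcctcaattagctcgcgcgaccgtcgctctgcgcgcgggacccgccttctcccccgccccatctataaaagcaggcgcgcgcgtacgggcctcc
Irf2 (chr8:47192460-47192759): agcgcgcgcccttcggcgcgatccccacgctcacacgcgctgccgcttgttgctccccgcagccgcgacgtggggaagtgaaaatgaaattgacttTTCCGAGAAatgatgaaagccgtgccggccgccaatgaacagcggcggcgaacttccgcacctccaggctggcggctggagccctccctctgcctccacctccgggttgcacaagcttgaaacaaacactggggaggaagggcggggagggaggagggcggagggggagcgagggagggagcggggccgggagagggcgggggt
The Irf1 match lay 90 to 82 bases before the start. Irf8 had 2 matches, at 171 to 163 and 153 to 145 bases before the start. Irf2 had its GAS match at 204 to 196 bases and also the only ISRE match, GAAAATGAAA, at 221 to 212 bases. The windows of Irf3, Irf4, Irf5, Irf7 and Irf9 did not hold these letters, and for Irf9 the bases before the start in the count table were not searched. A match describes the letters only, and no binding was measured.

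The genotype was first checked with Ezr itself. Ezr was at 531 ± 53.6 CPM (counts scaled to library size by edgeR's TMM method, mean ± SD, n = 3) in WT moMs and 231 ± 63.7 CPM in Ezr-KOm moMs. It was at 586 ± 83.8 against 191 ± 57.4 CPM in tnsIMs and at 661 ± 70.0 against 135 ± 37.4 CPM in matIMs. In each population every Ezr-KOm library lay below every WT library. The log2 fold changes were -1.20 (edgeR adjusted p = 0.0549), -1.62 (adjusted p = 0.00365) and -2.29 (adjusted p = 7.73e-05), so in moMs Ezr did not pass the adjusted threshold of 0.05. Ezr transcripts remained in every Ezr-KOm library.

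**Figure D1:**
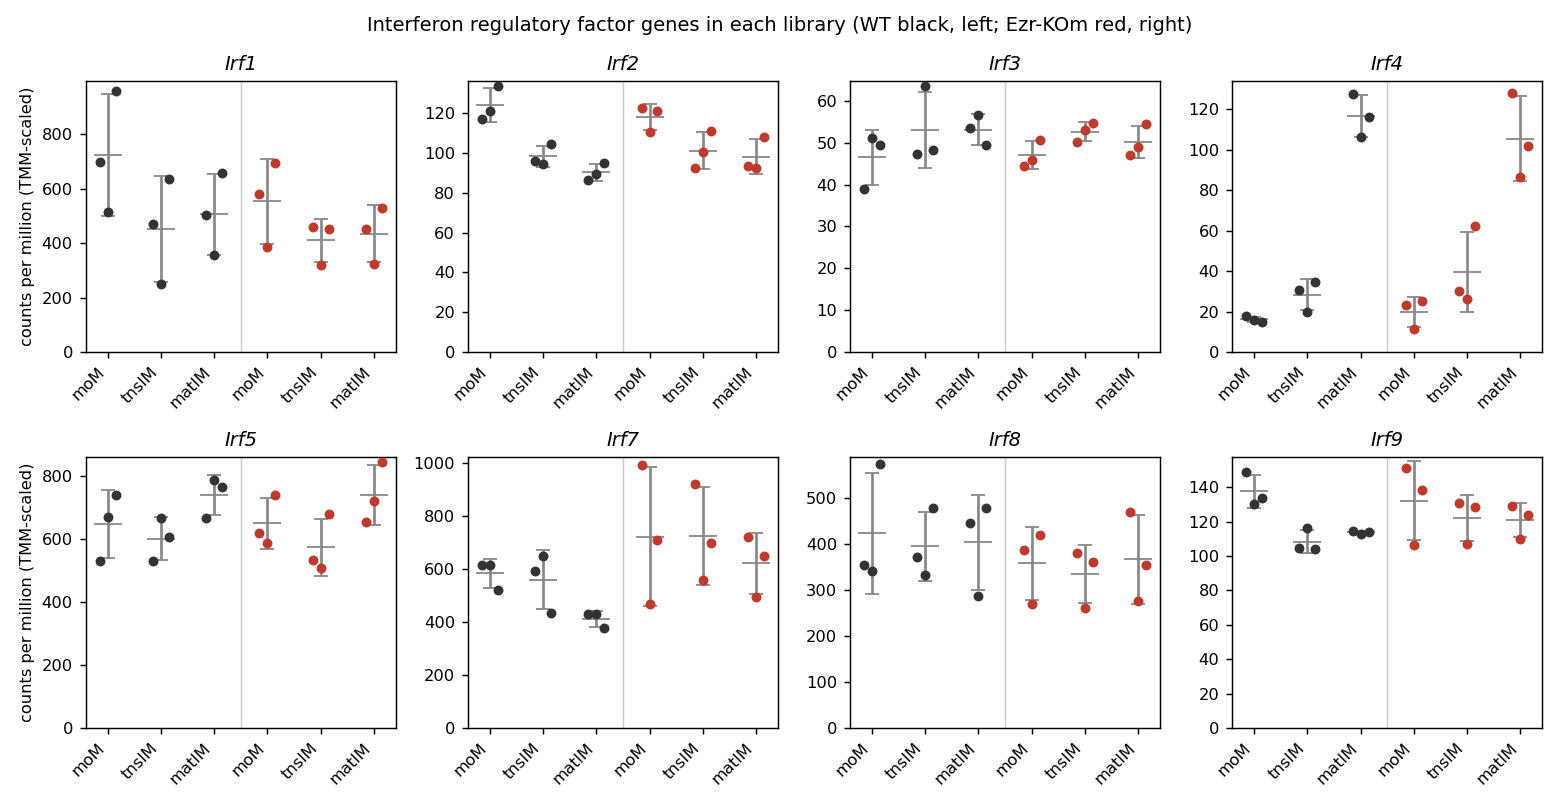
CPM (y axes, linear, from 0) of the 8 genes in each of the 18 libraries, by population (x axes), with WT in black and Ezr-KOm in red. Points are libraries, bars are the group mean ± SD (n = 3), and Irf4 is the gene whose matIM libraries all lie above 86 CPM while all moM libraries lie below 26 CPM.

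Levels between genes were compared per kilobase of exon. In WT moMs, Irf1 (155 CPM per kb of all annotated exons), Irf7 (155 CPM per kb) and Irf5 (90.3 CPM per kb) were highest, Irf8 (43.5 CPM per kb) followed, and Irf4 (3.30 CPM per kb) was lowest. With the length of the canonical transcript in place of all exons the values were 339, 244, 296, 83.3 and 3.39 CPM per kb, and Irf4 again was lowest. Irf2 and Irf3, at 11.1 and 13.4 CPM per kb of all exons, were at 49.3 and 22.5 CPM per kb of canonical transcript, so their order depended on the length used. In WT matIMs Irf4 reached 23.8 CPM per kb of all exons, above Irf2 (8.08), Irf3 (15.3) and Irf9 (19.6) on that scale. Per kb of canonical transcript it was at 24.5 CPM, below Irf2 (36.0), Irf3 (25.7) and Irf9 (40.8), so this order too depended on the length used.

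Irf4 rose from moMs to matIMs in both genotypes and had the largest log2 fold changes of the 8 members between populations. In WT mice it was at 17.7, 16.0 and 14.8 CPM in the moM libraries, 30.7, 19.8 and 34.9 CPM in the tnsIM libraries and 127, 106 and 116 CPM in the matIM libraries. The 3 WT populations did not overlap. In Ezr-KOm mice the moM libraries were at 23.1, 11.6 and 25.4 CPM, the tnsIM libraries at 30.3, 26.4 and 62.4 CPM, and the matIM libraries at 128, 86.7 and 102 CPM. Here too the populations did not overlap, although tnsIM replicate 3 stood above the other two.

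In WT mice Irf4 was higher in matIMs than in moMs by a log2 fold change of 2.85 (SE 0.32, edgeR adjusted p = 2.20e-06), a 7.22-fold difference. It was higher in matIMs than in tnsIMs by 2.03 (SE 0.31, adjusted p = 9.52e-05). The difference between WT tnsIMs and moMs was 0.82 (SE 0.31), which did not pass the threshold (adjusted p = 0.0621), but did with the replicate number as a block within genotype (0.80, adjusted p = 0.0110). In Ezr-KOm mice matIMs exceeded moMs by 2.40 (SE 0.31, adjusted p = 1.40e-05) and tnsIMs by 1.41 (SE 0.30, adjusted p = 0.00225), and tnsIMs exceeded moMs by 0.98 (SE 0.30, adjusted p = 0.0350). The 4 matIM differences kept their call when any library was left out. The Ezr-KOm difference between tnsIMs and moMs was 0.70 (adjusted p = 0.139) without Ezr-KOm moM replicate 2 and 0.54 (adjusted p = 0.201) without Ezr-KOm tnsIM replicate 3. The WT difference between tnsIMs and moMs passed the threshold, at 0.82 to 1.05, without Ezr-KOm moM replicate 2, WT tnsIM replicate 2, Ezr-KOm tnsIM replicate 2 or Ezr-KOm tnsIM replicate 3 (adjusted p between 0.0246 and 0.0476).

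**Figure D2:**
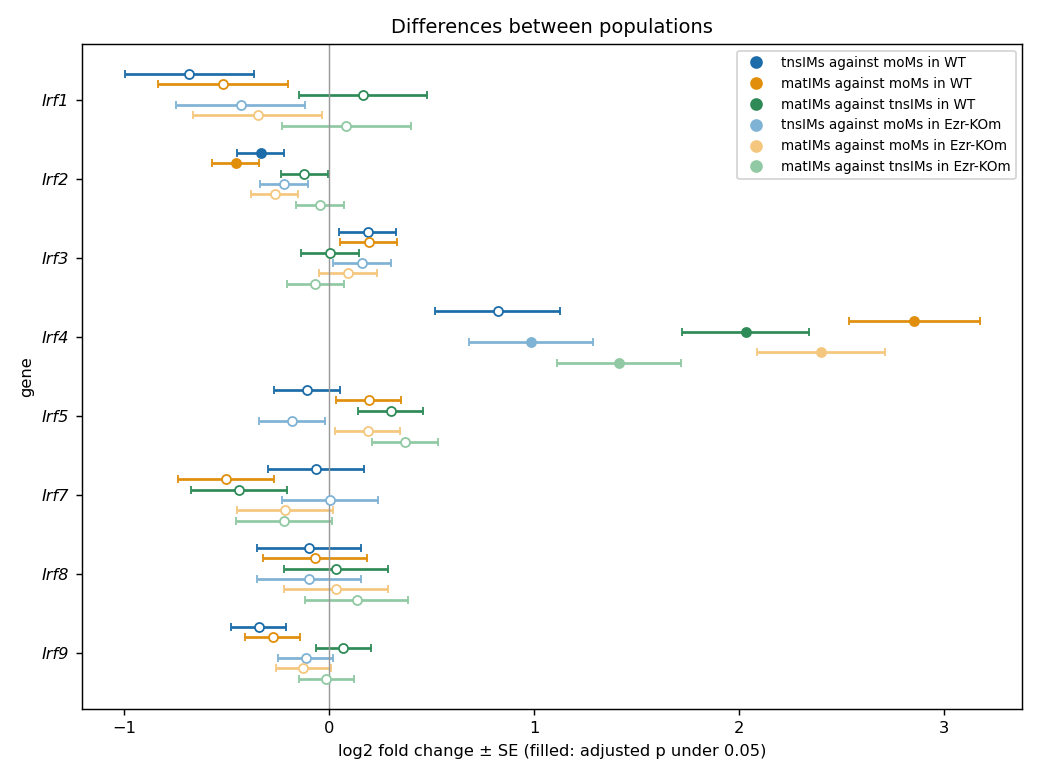
Log2 fold change ± SE (x axis) of each gene (y axis) in the 6 comparisons between populations, in WT (dark colours) and Ezr-KOm (light colours). Filled points passed an adjusted p of 0.05, and the Irf4 differences of matIMs from the other populations, from 1.41 to 2.85, are the largest.

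Markers of some other cell types were higher in matIMs, as Irf4 was. Per the study's methods the sorted populations came from the CD11c- fraction, while dendritic cells were gated as CD24-high and CD64-negative among CD11c+ cells. The summed level of 6 migratory dendritic cell markers (Ccr7, Fscn1, Ccl22, Cacnb3, Ccl17 and Il4i1) was 33.0 to 47.6 CPM in WT moMs, 410 to 683 CPM in WT tnsIMs and 5729.5 to 8460.5 CPM in WT matIMs. In Ezr-KOm mice it was 35.0 to 83.4, 545 to 758 and 7514 to 8333 CPM. Between matIMs and moMs 13.4% of all genes were called higher and 11.4% lower in WT mice, and 12.5% and 10.7% in Ezr-KOm mice. Of the 6 migratory dendritic cell markers, 5 were called higher in matIMs than in moMs in both genotypes, and the other, Il4i1, stayed under 1 CPM in every group. For example, Ccl22 reached 2633 ± 446 CPM and Ccr7 1815 ± 292 CPM in WT matIMs. The 5 markers of type 2 conventional dendritic cells, all called higher in matIMs than in moMs in both genotypes, were at 71.2 to 132 CPM in WT moMs and 1161 to 2059 CPM in WT matIMs, and at 81.4 to 107 CPM and 1052 to 2010.1 CPM in the Ezr-KOm groups. The 5 B cell markers were at 8.77 to 13.2 CPM and 147 to 220 CPM, and the 4 plasma cell markers at 52.4 to 60.8 CPM and 339 to 520 CPM, in WT moMs and WT matIMs respectively. In Ezr-KOm moMs and matIMs the B cell sums were 8.57 to 12.2 and 84.6 to 222 CPM, and the plasma cell sums 72.9 to 87.6 and 160 to 481 CPM. All 5 B cell markers were called higher in matIMs than in moMs in both genotypes. Of the 4 plasma cell markers 3 were, and the other was called lower in Ezr-KOm mice. The plasma cell gene Mzb1 was at 0 CPM in moMs of both genotypes. Macrophage markers, 7 genes, were at 4388 to 5052 CPM in WT moMs, 4669 to 5313 CPM in WT tnsIMs and 3617 to 3972 CPM in WT matIMs, with 2 called higher and 2 lower in WT matIMs than in moMs. In Ezr-KOm mice they were at 4570 to 4921, 4578 to 5072 and 3492 to 3798 CPM, with 2 higher and 4 lower. In both genotypes every matIM library lay below every moM and tnsIM library for this sum. The 6 monocyte markers fell from 8806 to 10184 CPM in WT moMs to 1381 to 1511 CPM in WT matIMs. The 4 epithelial markers were at 18.1 to 31.0 CPM in WT moMs, 995 to 1954 CPM in WT tnsIMs and 125 to 175 CPM in WT matIMs, and at 9.64 to 58.1, 625 to 1437.5 and 79.2 to 159 CPM in the Ezr-KOm groups. Endothelial and fibroblast markers, 4 genes each, were also highest in tnsIMs, with WT medians of 72.5, 238 and 65.4 CPM and of 27.3, 84.7 and 15.3 CPM in moMs, tnsIMs and matIMs. Marker sums of some further cell types were higher in WT matIMs than in WT moMs too. Medians were 179 and 89.2 CPM for type 1 conventional dendritic cells and 229 and 93.9 CPM for alveolar macrophages. They were 30.9 and 2.44 CPM for plasmacytoid dendritic cells and 19.2 and 2.96 CPM for neutrophils. In this order 4 of 5, 4 of 5, 1 of 4 tested and 2 of 5 genes were called higher, and 0 lower. The 5 T and NK cell markers were at 14.4 to 30.3 CPM over all groups. The part of these markers in the Irf4 difference, and in the other differences between populations, was not tested. In sorted bulk samples, more cells of a type and more RNA per cell cannot be told apart.

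**Figure D3:**
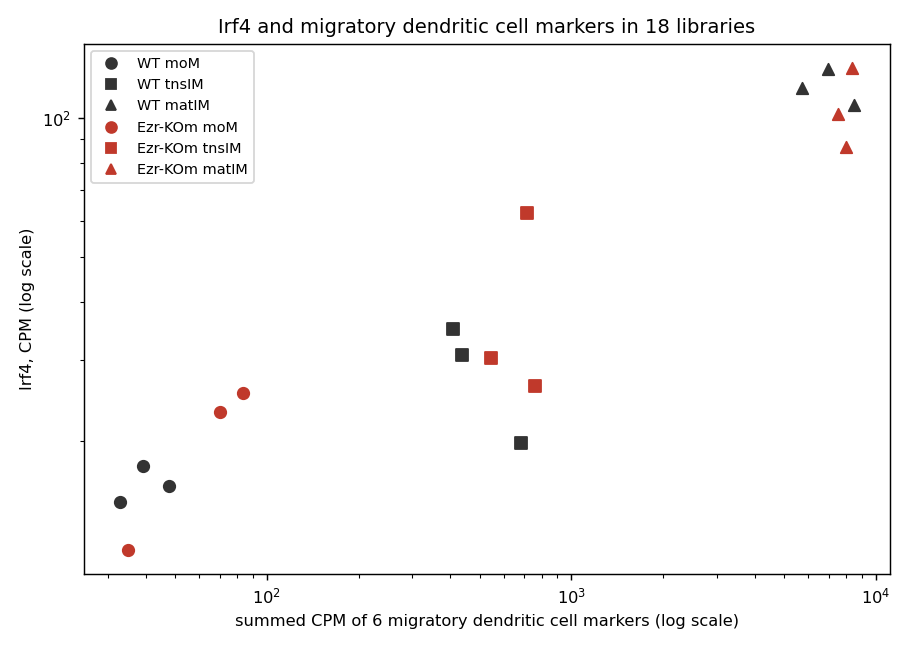
Irf4 (y axis, CPM, log scale) against the summed CPM of 6 migratory dendritic cell markers (x axis, log scale) in the 18 libraries, with circles for moMs, squares for tnsIMs, triangles for matIMs, black for WT and red for Ezr-KOm. The 3 populations stand apart along the marker axis, moM and tnsIM libraries of the 2 genotypes together overlap along the Irf4 axis, and matIMs lie above both, with marker sums up to 83.4 CPM in moMs and from 5729.5 CPM in matIMs.

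Irf8 was not called between populations. WT moM libraries were at 354, 340 and 574 CPM, WT tnsIM libraries at 372, 333 and 478 CPM and WT matIM libraries at 446, 286 and 478 CPM. In Ezr-KOm mice Irf8 was at 386, 268 and 419 CPM in moMs, 380, 261 and 360.5 CPM in tnsIMs and 468, 276 and 355 CPM in matIMs. The groups overlapped, and the log2 fold changes between populations lay between -0.10 and 0.13 in both genotypes, with an SE of 0.25 in each comparison. In all 6 groups the library with replicate number 2 was the lowest for Irf8, and the same held for Irf1.

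Genes for DNA-binding partners of IRF4 and IRF8 were called in both directions. Of the 10 listed, all tested, 4 were higher and 1 lower in WT matIMs than in WT moMs, where 13.4% of all genes were called higher and 11.4% lower. The median log2 fold change was 0.15 beside 0.013 over all genes. Spib, an ETS factor related to PU.1, rose by 6.95, from 0.19 to 23.0 CPM (adjusted p = 3.74e-09). Batf3, which is required for type 1 conventional dendritic cells, rose by 1.27 (adjusted p = 0.000600), and Ikzf3, a lymphoid zinc-finger factor, by 1.79 (adjusted p = 0.000925). Batf fell by 0.50 (adjusted p = 0.0226). In Ezr-KOm mice, where 12.5% of all genes were higher and 10.7% lower, 4 were higher and none lower, with Spib at 5.48, Ikzf3 at 1.85 and Batf3 at 1.13.

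Irf2 was the other member called between populations without a replicate block. It was at 117, 121 and 134 CPM in WT moMs, 96.0, 94.4 and 104 CPM in WT tnsIMs and 86.6, 89.4 and 95.0 CPM in WT matIMs. Every WT moM library lay above every WT library of the other populations. Irf2 was lower in WT matIMs than in moMs by a log2 fold change of -0.46 (SE 0.12, adjusted p = 0.00654), a call kept when any library was left out. It was lower in WT tnsIMs than in moMs by -0.34 (SE 0.12, adjusted p = 0.0461), a call that sat at the threshold. That call was lost, with adjusted p between 0.0514 and 0.161, without WT moM replicate 2 or 3, Ezr-KOm moM replicate 1 or 3, any WT tnsIM replicate, WT matIM replicate 2 or 3, or Ezr-KOm matIM replicate 1 or 2. In Ezr-KOm mice the values were -0.27 (adjusted p = 0.111) for matIMs and -0.22 (adjusted p = 0.237) for tnsIMs against moMs, and the first was called with the block within genotype (adjusted p = 0.0491).

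Irf1 varied widely between libraries of a group, and its calls between populations depended on whether libraries were paired by replicate number. Without pairing it was not called. It was at 698, 515 and 960 CPM in WT moMs, 469, 249 and 636 CPM in WT tnsIMs and 502, 359 and 656 CPM in WT matIMs. In Ezr-KOm mice it was at 581, 387 and 695 CPM in moMs, at 459, 320 and 454 CPM in tnsIMs and at 451, 324 and 531 CPM in matIMs. The groups overlapped in both genotypes. The study's text names Irf1 in a set of genes distinct to WT tnsIMs. Here the WT means were 724, 451 and 506 CPM in moMs, tnsIMs and matIMs. The log2 fold change from WT moMs was -0.68 (SE 0.32, adjusted p = 0.134) in tnsIMs and -0.52 (SE 0.31, adjusted p = 0.263) in matIMs. Without WT tnsIM replicate 3 the first of these was -0.98 and passed the threshold (adjusted p = 0.0462). In all 6 pairs of the same genotype and replicate number the tnsIM library lay below the moM library. With the replicate number as a block within genotype, Irf1 was called lower than in moMs in WT tnsIMs (-0.73, adjusted p = 0.000182), WT matIMs (-0.52, adjusted p = 0.00250), Ezr-KOm tnsIMs (-0.41, adjusted p = 0.0184) and Ezr-KOm matIMs (-0.34, adjusted p = 0.0365). The labels do not say what a replicate number shares. Per the study's text the RNA-seq came from 3 mice of each genotype, and each population of a genotype had 3 libraries. The unblocked fit did not use the replicate number.

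Of 23 genes listed as IRF1-dependent targets of interferon gamma, 4 were higher and 1 lower in WT matIMs than in WT moMs, with a median log2 fold change of -0.056. Of all genes 13.4% were called higher and 11.4% lower in that comparison. Ciita, the regulator of MHC class II genes, rose by 2.50 (adjusted p = 6.86e-06), and the populations were sorted on MHC-II protein. Il12b, a subunit of interleukin 12, rose by 3.05 (adjusted p = 0.000315) and Psmb8, an immunoproteasome subunit, by 0.84 (adjusted p = 0.00291). Casp4, an inflammatory caspase, fell by 1.00 (adjusted p = 0.00730). In Ezr-KOm mice 4 were again higher and 1 lower (12.5% and 10.7% of all genes), with Il12b at 3.66 and Ciita at 2.51.

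The factors that act directly downstream of pattern-recognition receptors were not called between populations without the block. The WT mean of Irf3 was 46.5 ± 6.63 CPM for moMs, 53.0 ± 9.08 CPM for tnsIMs and 53.1 ± 3.62 CPM for matIMs (n = 3 each). Irf5 was at 647 ± 107, 601 ± 68.9 and 739 ± 63.4 CPM in the same groups. In Ezr-KOm mice Irf3 was at 47.0 ± 3.27, 52.6 ± 2.27 and 50.1 ± 3.83 CPM and Irf5 at 650 ± 80.6, 573 ± 91.9 and 740.1 ± 95.3 CPM. Every WT matIM library lay above every WT tnsIM library for Irf5, with a log2 fold change of 0.30 (SE 0.16, adjusted p = 0.241). Irf7 was at 614, 616 and 521 CPM in WT moMs, 594, 648 and 435 CPM in WT tnsIMs and 429, 431 and 376 CPM in WT matIMs. The WT matIM libraries lay below all other WT libraries, with a log2 fold change from moMs of -0.50 (SE 0.23, adjusted p = 0.132). With the block within genotype, Irf7 was called lower in WT matIMs than in moMs (adjusted p = 0.00301) and tnsIMs (adjusted p = 0.0119), and Irf5 higher in matIMs than in tnsIMs in WT (adjusted p = 0.0386) and Ezr-KOm mice (adjusted p = 0.0115). The members whose WT libraries did not overlap numbered 3 in tnsIMs against moMs (36% of all genes), 4 in matIMs against moMs (41.5%) and 3 in matIMs against tnsIMs (31.5%). In Ezr-KOm mice these were 1 (28.7%), 2 (39.9%) and 1 (31.2%).

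Upstream of these factors, several receptor genes were lower in matIMs, a comparison in which 11.4% of all genes were called lower. Of 13 genes of the LPS receptor complex and its adaptors, 6 were lower and none higher in WT matIMs than in WT moMs, with a median log2 fold change of -0.43. The LPS-binding genes Lbp and Cd14 fell by 3.54 (adjusted p = 3.28e-07) and 1.33 (adjusted p = 4.18e-05), and the receptor Tlr4 fell by 1.58 (adjusted p = 0.000315). Of 11 tested nucleic acid sensors and adaptors, 3 were lower and none higher, with a median of -0.37. Of all genes 11.4% were called lower and 24.8% in either direction, and the list's share lay near the second of these. The RNA sensors Tlr7 and Tlr8 fell by 1.73 (adjusted p = 4.41e-06) and 2.11 (adjusted p = 3.79e-05), and Unc93b1, which carries these receptors to endosomes, fell by 0.58 (adjusted p = 0.00502).

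Among 7 kinases of IRF proteins and adaptors of these kinases, 3 were lower and 1 higher in WT matIMs than in moMs (11.4% and 13.4% of all genes), with a median of -0.38. Ikbke, an IRF3 and IRF7 kinase, fell by 1.13 (adjusted p = 6.05e-05), the adaptor Azi2 by 0.71 (adjusted p = 0.00113) and Ikbkb by 0.47 (adjusted p = 0.0339), and the scaffold Tank rose by 0.49 (adjusted p = 0.0127). In Ezr-KOm mice the LPS receptor list had 4 lower genes, the nucleic acid list 3 and the kinase list 2 lower and 1 higher. There 10.7% of all genes were called lower and 12.5% higher.

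Irf9 was at 149, 130 and 134 CPM in WT moMs, 105, 116 and 104 CPM in WT tnsIMs and 115, 113 and 114 CPM in WT matIMs. Every WT moM library lay above the others, and the log2 fold changes of -0.34 (SE 0.13, adjusted p = 0.0768) in tnsIMs and -0.27 (SE 0.13, adjusted p = 0.154) in matIMs did not pass the threshold, though the first did with the block within genotype (adjusted p = 0.0194). In Ezr-KOm mice Irf9 was at 151, 107 and 138 CPM in moMs, 131, 107 and 128 CPM in tnsIMs and 129, 110 and 124 CPM in matIMs, and the groups overlapped.

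Receptors and signal carriers on the way to the IRF9 complex moved in both directions between WT matIMs and moMs, where 13.4% of all genes were called higher and 11.4% lower. Of 10 tested interferon and receptor genes, 3 were lower in WT matIMs than in moMs: Ifnar1 at -0.53 (adjusted p = 0.00189), Ifnar2 at -0.55 (adjusted p = 0.00561), which together form the type I interferon receptor, and Ifngr1 at -0.84 (adjusted p = 0.00527), a chain of the interferon gamma receptor. The median over the 10 was -0.52. The same 3 genes were called lower in Ezr-KOm matIMs, at -0.50, -0.50 and -0.76. Of 6 kinases and STAT proteins, with a median of -0.22, Jak2 rose by 1.19 (adjusted p = 0.000404), and Stat3 and Jak1 fell by 0.45 (adjusted p = 0.0265) and 0.47 (adjusted p = 0.0357).

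Of 26 interferon-stimulated genes of the IRF9 complex, 3 were lower and none higher in WT matIMs than in moMs, a share near that of all genes called lower (11.4%), with a median log2 fold change of -0.28. These were Oas2 and Oas3, which make the messenger that activates RNase L, at -1.12 (adjusted p = 0.00116) and -1.06 (adjusted p = 0.0105), and the mitochondrial nucleotide kinase Cmpk2 at -1.03 (adjusted p = 0.0160). Of 15 cofactors and repressors that bind IRF proteins, 1 was higher and 2 lower (13.4% and 11.4% of all genes), with a median of -0.054. The corepressor Trim28 rose by 0.60 (adjusted p = 0.00687), and Irf2bpl and Socs3 fell by 1.16 (adjusted p = 0.00189) and 0.58 (adjusted p = 0.0300).

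Across the family, 1 of 8 members was called between WT tnsIMs and moMs, where 21.6% of all genes were called. The counts were 2 of 8 between WT matIMs and moMs (24.8% of all genes) and 1 of 8 between WT matIMs and tnsIMs (18.5%). In Ezr-KOm mice 1 of 8 was called in each comparison, beside 14.3%, 23.3% and 18.2% of all genes, and it was Irf4 each time. With the replicate number as a block within genotype the counts were 4, 4 and 3 members in WT mice and 2, 3 and 2 in Ezr-KOm mice, in the same order of comparisons. The block also changed the number of all genes called, for example from 2257 to 3403 between Ezr-KOm tnsIMs and moMs. Blocked shares of all genes are not given here, so the blocked counts cannot be read against the shares above. Over all alternatives, the blocks included, at most 4747, 5002 and 3773 genes were called in the WT comparisons. In Ezr-KOm mice these limits were 3403, 4783 and 3861 genes, and the blocked fits tested 15811 genes. Against these limits the blocked shares of the 8 members lay above those of all genes in WT mice, with no test. Without the block the members' shares lay near or under those of all genes.

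No member was called between Ezr-KOm and WT mice in any population. Of 8 members, 0 were called in moMs, tnsIMs and matIMs, where 0.171%, 0.164% and 0.152% of all genes were called by edgeR. With the replicate number as a block the number of genes called was 42 in place of 27 in moMs and 38 in place of 24 in matIMs, and no member was added. The study called genes with p below 0.05 before adjustment and a log2 fold change beyond 0.75 in either direction, and 0 members met both conditions, beside 2.51%, 1.83% and 2.4% of all genes. Before adjustment alone, 1 member was under 0.05 in matIMs (3.84% of all genes) and 0 in moMs (3.74%) and tnsIMs (3.24%), and DESeq2 also called 0 members at its adjusted threshold.

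That member was Irf7 in matIMs. The Ezr-KOm matIM libraries were at 720, 495 and 650 CPM and the WT matIM libraries at 429, 431 and 376 CPM. Every Ezr-KOm library lay above every WT library, which was the case for 5.03% of all genes in matIMs. The log2 fold change was 0.59 (SE 0.23), a 1.51-fold difference, with an edgeR adjusted p of 1.00. In tnsIMs the Ezr-KOm libraries were at 922, 557 and 697 CPM and the WT libraries at 594, 648 and 435 CPM, which overlapped, with a log2 fold change of 0.37 (SE 0.23). In moMs the Ezr-KOm libraries, at 993, 466 and 709 CPM, spanned the WT libraries, with a log2 fold change of 0.31 (SE 0.23). Without Ezr-KOm moM replicate 1 the moM value was -0.0074, so its sign rested on that library. In each Ezr-KOm population replicate 1 was the highest library for Irf7 and replicate 2 the lowest. The labels do not say whether same-numbered libraries share an animal, so the populations cannot be read as independent of each other.

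**Figure D4:**
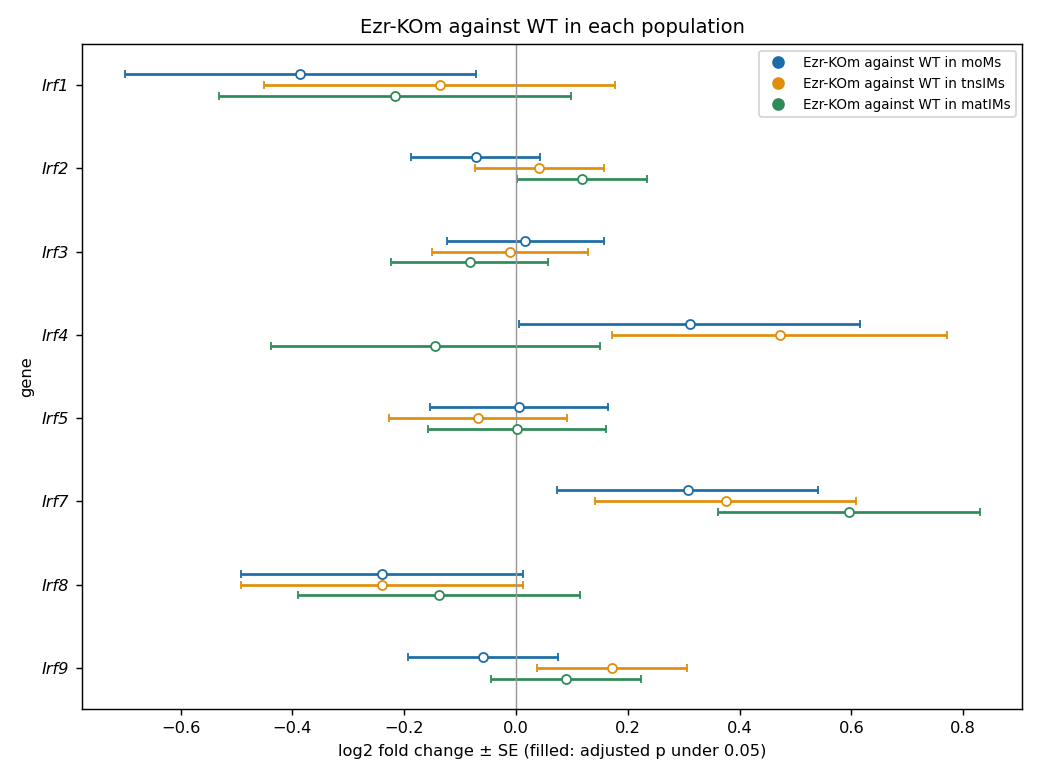
Log2 fold change ± SE (x axis) of Ezr-KOm against WT for each gene (y axis) in moMs, tnsIMs and matIMs. All points are open, since no gene of the 8 passed an adjusted p of 0.05, and Irf7 in matIMs, at 0.59, is farthest from 0.

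No other member had an unadjusted p under 0.05 between genotypes. Irf1 was lower in Ezr-KOm mice on average in each population, with log2 fold changes of -0.39, -0.14 and -0.22 (SE 0.31 each), and so was Irf8, with -0.24, -0.24 and -0.14 (SE 0.25 each), with overlapping libraries throughout. The study's text reports Irf1 as significantly lower in Ezr-KOm than in WT tnsIMs. Here that difference was -0.14 (edgeR unadjusted p = 0.670), was not called and did not meet the study's rule. Without single libraries it ranged from -0.42 to 0.18, so its sign was not stable. The study's own test for that figure was not repeated here. Irf4 was at 0.31, 0.47 and -0.14 (SE 0.29 to 0.30). The log2 fold changes of Irf2, Irf3, Irf5 and Irf9 lay between -0.083 and 0.17 in every population. A genotype effect that differed between populations was tested directly, and 0 of 8 members passed in each of the 3 comparisons, as did 0% of all genes. At an unadjusted p under 0.05, 0 members passed, beside 1.47%, 1.7% and 1.16% of all genes.

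Of the 26 interferon-stimulated genes, 0 were called between genotypes in any population. In moMs 26 had a log2 fold change above 0, against 25 for tnsIMs and 24 for matIMs, with medians of 0.20, 0.41 and 0.40 beside medians of all genes of 0.0022, 0.0020 and -0.0014. The other lists, of receptors, sensors, kinases, partners and cofactors, also had 0 genes called between genotypes. The unadjusted p was under 0.05 for 0, 3 and 2 of the interferon-stimulated genes. Without Ezr-KOm moM replicate 1 the median in moMs was -0.057, with 12 genes above 0. Without the Ezr-KOm library numbered 1, the median was 0.28 in tnsIMs with 18 genes above 0, and 0.20 in matIMs with 21 genes above 0. The 23 IRF1-dependent genes had medians of -0.13, -0.15 and -0.051 with 0 called, and without single libraries these ranged from -0.32 to 0.14, from -0.32 to 0.22 and from -0.20 to 0.17. Genes of a list share libraries and are not independent of each other.

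The genes most like each member over the 18 libraries were found by Pearson correlation of log2 CPM among 8098 other genes with a mean of at least 10 CPM. This is a description over libraries of 6 groups that differ in cell population, with no test. For Irf4 they were Pdcd1lg2 (r = 0.97), which encodes the checkpoint ligand PD-L2, Slc30a4 (0.97) and Siglecg (0.96). For Irf2 they were Tifa (0.94), Tnfrsf21 (0.94) and Gpr141 (0.94). For Irf1 they were the interferon-inducible GTPase Irgm1 (0.89), Gm12250 (0.89) and Fam117a (0.85), and for Irf8 they included Igtp (0.88) and Irgm1 (0.86). For Irf7 they were Rtp4 (0.88), Oas1a (0.84) and Id1 (0.84), and for Irf9 Btg1, Ms4a4c and Senp2 (0.88 each). For Irf5 they were Slc46a3 (0.92), Adap1 (0.91) and Pigx (0.89), and for Irf3 Slc39a13 (0.89), Zfyve19 (0.85) and A430005L14Rik (0.83).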

How the data were processed

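RNA of FACS-sorted moMs, tnsIMs and matIMs was sequenced in 18 libraries, 3 for each population and genotype. The deposited values are raw counts per gene. Per the study's methods the authors made them from SMART-Seq v4 and Nextera XT libraries with paired reads, aligned with STAR (2.7.9a) to GRCm39. The strand setting of the counting is not given in the sources used here. Total counts per library ranged from 16512783 to 48460995 (median 24086623), and no 2 libraries held identical values.

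Counts were tested with edgeR (4.0.16, R 4.3.3) by the quasi-likelihood test, with TMM scaling and 1 fit over the 6 groups, after filterByExpr with a smallest count of 10, which kept 15811 of 21254 genes and left out 5443. P-values were adjusted by the Benjamini-Hochberg method over all tested genes, and an adjusted p under 0.05 was a call. The study's rule (unadjusted p under 0.05 and an absolute log2 fold change over 0.75) stands beside genotype comparisons. DESeq2 (1.42.0), other scalings, filters, sample subsets, replicate blocks and leaving out each library were alternatives. On simulated counts for the moM comparison (15371 genes, 200 changed by a log2 fold of 2), edgeR recovered 75.5% with 4.43% false calls. The largest genotype difference of a member was 0.59, and recovery of changes that small was not simulated.

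The labels number the libraries but do not say which animal each came from, so p-values measure the spread between these samples. In the genotype comparisons same-numbered libraries deviated together (r between 0.102 and 0.316 over genes, against at most 0.0508 for other pairs), so blocked counts are given there. Between populations of one genotype same-numbered libraries did so too (r between 0.0905 and 0.397, against at most 0.0316 for other pairs). Blocked values are given beside each member whose call they change. Named genes were all 8 members, Ezr, up to 3 called genes per list and direction with the smallest p, and the 3 genes most correlated with each member. Genes that these rules name but the text does not are not reported here. The members and gene lists were chosen with earlier results of these data known. The number of columns outside the labels was 0.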

Additional observations from a re-analysis of the deposited data

How the results depend on the processing

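Irf4 kept its direction and its call in the 4 comparisons with matIMs under every alternative, with adjusted p at most 4.16e-05 (WT matIMs against moMs), 0.00106 (WT matIMs against tnsIMs), 0.000436 and 0.0173 (the same in Ezr-KOm). Irf2 in WT matIMs against moMs also kept both. No alternative called a member between genotypes, and none passed the study's rule. Irf7 between genotypes in matIMs stayed positive, from 0.48 to 0.73 without single libraries, with adjusted p from 0.560 to 1.00 over all alternatives. The causes of the changes below were not tested.

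The number of genes called between genotypes was 27, 26 and 24 in moMs, tnsIMs and matIMs. DESeq2 called 55, 55 and 52. It was 7 in tnsIMs with each population fitted alone, and 13 in matIMs with at least 10 counts in every library. By the study's rule the counts of 397, 290 and 379 became 705, 582 and 662 with no filter, 126, 105 and 138 with at least 10 counts in every library, and 234 in moMs fitted alone. Without single libraries the called genes numbered 13 to 26 in tnsIMs (13 without WT tnsIM replicate 1, 15 without Ezr-KOm tnsIM replicate 1) and 15 to 26 in matIMs (15 without replicate 3 of either genotype), and the study's rule gave 278 to 455 in tnsIMs (455 without WT tnsIM replicate 3).

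Between WT tnsIMs and moMs 2 members were called with DESeq2 and 0 with no filter or with at least 10 counts in every library, and 0 to 2 without single libraries. Irf2 lost its call there under upper-quartile scaling (adjusted p = 0.134), library totals (0.150), no filter (0.0872), at least 10 counts (0.0800) and each genotype alone (0.0787), and Irf4 gained one under DESeq2 (0.0306), upper-quartile scaling (0.0374), library totals (0.0432) and each genotype alone (0.0103). Irf7 in WT matIMs against moMs was called with each genotype alone (0.0383). Between Ezr-KOm tnsIMs and moMs 0 members were called with each genotype alone, and 0 to 1 without single libraries, with 1410 to 2428 genes (1410 without Ezr-KOm moM replicate 3). With at least 10 counts in every library, genes called fell from 2926 to 1760 (WT matIMs against tnsIMs), from 2257 to 1439 (Ezr-KOm tnsIMs against moMs) and from 2881 to 1837 (Ezr-KOm matIMs against tnsIMs), where fewer genes were tested.

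Blocking on the replicate number gave 42 genes called between genotypes in moMs and 38 in matIMs. Between populations of one genotype the same-numbered libraries correlated at 0.0905 to 0.397, above all other pairs (at most 0.0316). Not every same-numbered pair exceeded 0.1. A check of each comparison, made after the blocked calls were known, put every pair above 0.1 in all but the matIM against moM comparisons. The replicate block called 4 members between WT tnsIMs and moMs, 3 between WT matIMs and moMs, 1 between WT matIMs and tnsIMs and 2 in each Ezr-KOm comparison. With the block within genotype, 4 members were called in WT tnsIMs against moMs, 4 in WT matIMs against moMs, 3 in WT matIMs against tnsIMs, 2 in Ezr-KOm tnsIMs against moMs (3403 genes), 3 in Ezr-KOm matIMs against moMs and 2 in Ezr-KOm matIMs against tnsIMs. Shares of all genes under these blocks are not given, and only the upper limits over all alternatives, given with the family counts, stand beside the member counts. The added members were Irf1 (-0.73, adjusted p = 0.000182), Irf4 (0.80, 0.0110) and Irf9 (-0.34, 0.0194) in the first, Irf1 (-0.52, 0.00250) and Irf7 (-0.50, 0.00301) in the second, Irf5 (0.30, 0.0386) and Irf7 (-0.43, 0.0119) in the third, Irf1 (-0.41, 0.0184) in the fourth, Irf1 (-0.34, 0.0365) and Irf2 (-0.27, 0.0491) in the fifth, and Irf5 (0.37, 0.0115) in the sixth.

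None of the values that changed sign was called. Irf5 between genotypes was -0.0082 (DESeq2), -0.0071 (library totals), -0.0010 (no filter) and -0.0018 (at least 10 counts) in moMs and -0.0050 (replicate block) in matIMs, and Irf3 in tnsIMs was 0.0079 (library totals) and 0.0021 (population alone). Irf7 in WT tnsIMs against moMs was 0.035 (upper-quartile), and Irf8 in WT matIMs against moMs 0.028 (library totals). In WT matIMs against tnsIMs Irf3 was -0.026 (DESeq2), -0.048 (upper-quartile), -0.016 (no filter), -0.031 (at least 10 counts) and -0.0063 (genotype alone), and Irf8 was -0.012 (upper-quartile) and -0.0020 (at least 10 counts). With library totals Irf9 was 0.0025 in Ezr-KOm matIMs against moMs and 0.026 against tnsIMs, and its WT matIM level was 117 CPM. Without single libraries the log2 fold changes that changed sign ranged as follows. For Ezr-KOm against WT in moMs, Irf3 from -0.10 to 0.095, Irf5 from -0.12 to 0.11, Irf7 from -0.0074 to 0.55, Irf8 from -0.37 to 0.043 and Irf9 from -0.18 to 0.080. For Ezr-KOm against WT in tnsIMs, Irf1 from -0.42 to 0.18, Irf3 from -0.081 to 0.14 and Irf5 from -0.17 to 0.013. For Ezr-KOm against WT in matIMs, Irf1 from -0.40 to 0.011, Irf5 from -0.091 to 0.082 and Irf8 from -0.35 to 0.028. For tnsIMs against moMs in WT, Irf7 from -0.15 to 0.11 and Irf8 from -0.24 to 0.18. For matIMs against moMs in WT, Irf8 from -0.23 to 0.18. For matIMs against tnsIMs in WT, Irf1 from -0.15 to 0.44, Irf3 from -0.11 to 0.12, Irf8 from -0.12 to 0.20 and Irf9 from -0.0087 to 0.093. For tnsIMs against moMs in Ezr-KOm, Irf7 from -0.22 to 0.35, Irf8 from -0.26 to 0.048 and Irf9 from -0.24 to 0.038. For matIMs against moMs in Ezr-KOm, Irf7 from -0.48 to 0.093 and Irf8 from -0.21 to 0.20. For matIMs against tnsIMs in Ezr-KOm, Irf1 from -0.11 to 0.26, Irf8 from -0.13 to 0.30 and Irf9 from -0.11 to 0.051.

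Scaling moved the median of all genes to 0.11 in WT tnsIMs against moMs (upper-quartile), and to 0.11 and 0.13 in WT and Ezr-KOm matIMs against moMs (library totals), from 0.015, 0.013 and 0.0067. The share of higher calls went from 60.1% to 69.9% (upper-quartile) and 70.0% (library totals) in WT tnsIMs against moMs, from 64.7% to 74.1% and 76.7% in Ezr-KOm, and with library totals from 53.9% to 64.4% and 66.1% in WT and Ezr-KOm matIMs against moMs.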
